A study of Mus musculus with 26 samples.

Results

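The interferon-stimulated genes (ISGs) described here are 42 mouse genes known to rise in cells that meet type I or type II interferon. They were chosen by gene symbol, with earlier results of these data known, leaving out chemokines and the genes of class I antigen presentation. All 42 were among the 56738 gene symbols counted, and 38 of them were among the 16893 genes with a mean normalised count over 10 across the libraries, which were tested. RNA was sequenced from primary keratinocytes, the main cell type of the epidermis, which were isolated from neonatal C57BL/6NJ mice at an age of 2 days and cultured for 4 days. The 5 WT and 8 KO mice each gave a library under basal conditions and a library from cells that also received IL17A and TNFα (each at 20 ng/ml) for 24 h, a pair of cytokines used to model psoriatic skin. This makes 26 libraries in the groups WT basal, WT with IL17A/TNFα, KO basal and KO with IL17A/TNFα. The KO mice carry a CRISPR-Cas9 deletion in *Pla2g4d*, a cytosolic phospholipase A2 gene, in all tissues, and came from a line bred as homozygotes, so that genotype, line and litter cannot be told apart.

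In a cell that senses viral RNA or misplaced DNA, interferon genes are switched on, and the secreted interferons bind receptors on the same and on neighbouring cells. Type I interferons act through Janus kinases on a complex that holds STAT2 and IRF9 and binds a DNA element called the interferon-stimulated response element (ISRE), whereas interferon-gamma acts mainly on the gamma-activated site (GAS). TNFα and IL17A act mainly through NF-κB, which binds the kappa-B motif and is known to induce IRF1, a factor that itself reads the ISRE. In skin, ISGs limit viral growth and are high in several inflammatory diseases.

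Total counts per library lay between 42072745 and 78102858. Levels are given as CPM, the count of a gene per 1000000 counts of the tested genes in its library after TMM scaling. The targeted gene, *Pla2g4d*, stood lower in basal KO than in basal WT cells (2.06 ± 0.716 CPM, SD, n = 8, against 3.35 ± 1.36, n = 5, adjusted p = 0.0935). With cytokines it reached 38.1 ± 9.55 and 52.2 ± 14.9 CPM (adjusted p = 0.345). These counts also take in exons outside the deletion and so do not check the genotype. Keratinocyte markers such as *Krt5* (at least 16370 CPM) and *Krt14* (at least 10850 CPM) were high in every library. Of the immune cell markers, *Cd207*, *H2-Aa*, *Siglech* and *Nkg7* were at 0 in all 26 libraries and *Ptprc* reached at most 0.116 CPM, while the summed level of the 16 immune markers, carried mostly by *Cd68*, lay between 20.8 and 56.1 CPM. Markers of fibroblasts summed to between 2.0 and 8.25 CPM, those of endothelial cells to between 2.44 and 6.86 CPM and those of melanocytes to between 306 and 628 CPM.

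Promoter sequences show which of these elements lie close to the genes. RefSeq promoters, built on GRCm38.p6, were found for 31 of the 42 genes, and the 250 bases before each start site were searched on both strands. For these genes only the promoter listed first was used, and other start sites were not searched. The ISRE core, GAAANNGAAA, was present in 14 of the 31 (45.2%), against 2.98% of 32841 mouse promoters of the same length. The GAS, TTCNNNGAA, was present in 8 (25.8%, against 7.02%), and the kappa-B motif in 3 (9.68%, against 3.90%). The 3 with a kappa-B match were *Irf1*, *Oasl1* and *Bst2*. The stretches below hold matches of genes named in the results, of which *Bst2*, *Ifit3* and *Ifit3b* were not called in any comparison. They run 5′ to 3′ on the strand of the gene, and capitals mark the matches, some of which overlap each other. A match on the other strand appears as its reverse complement. Coordinates are from an exact match of each stretch to GRCm39.
Isg15, chr4:156285306-156285405, minus strand: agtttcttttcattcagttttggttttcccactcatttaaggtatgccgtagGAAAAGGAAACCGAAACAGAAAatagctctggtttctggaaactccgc
Ifit1, chr19:34618149-34618248, plus strand: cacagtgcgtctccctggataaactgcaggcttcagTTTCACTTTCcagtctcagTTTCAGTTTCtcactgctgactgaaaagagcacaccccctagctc
Ifit3, chr19:34560744-34560843, plus strand: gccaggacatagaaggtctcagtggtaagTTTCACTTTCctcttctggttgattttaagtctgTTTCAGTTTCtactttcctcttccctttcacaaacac
Ifit3b, chr19:34585140-34585239, plus strand: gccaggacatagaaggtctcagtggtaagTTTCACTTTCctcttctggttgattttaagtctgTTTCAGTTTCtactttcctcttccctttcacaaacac
Rsad2, chr12:26506512-26506611, minus strand: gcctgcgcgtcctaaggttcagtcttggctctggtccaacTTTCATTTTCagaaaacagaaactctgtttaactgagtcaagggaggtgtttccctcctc
Bst2, chr8:71990187-71990286, minus strand: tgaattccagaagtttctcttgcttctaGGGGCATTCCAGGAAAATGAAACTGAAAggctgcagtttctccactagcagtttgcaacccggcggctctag
Irf1, chr11:53660711-53660810, plus strand: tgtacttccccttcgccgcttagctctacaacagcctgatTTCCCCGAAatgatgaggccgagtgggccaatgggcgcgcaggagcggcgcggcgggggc
Irf1, chr11:53660813-53660840, plus strand: ggccgagtccgggccGGGGAATCCCgct

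*Isg15* held 3 overlapping ISRE cores between 78 and 57 bases before its start. *Ifit1* held 2, from 104 to 95 and from 85 to 76 bases before the start. The stretches of *Ifit3* and *Ifit3b* are identical in all 100 bases, both ISRE cores included. In *Bst2*, a kappa-B match, a GAS and 2 ISRE cores overlap between 142 and 115 bases before the start, and *Bst2* was the only one of the 31 with both the ISRE core and the kappa-B motif, a combination found in 0.122% of all promoters. *Irf1* held a GAS and, from 13 to 4 bases before the start, a kappa-B match, and no ISRE core. Each of the GTPase genes *Gbp2*, *Gbp3*, *Gbp7*, *Igtp* and *Irgm1* held the ISRE core, and *Gbp7* and *Igtp* a GAS as well. Of the genes called lower in KO cells with cytokines below, *Irf7*, *Irf9*, *Oasl2* and *Xaf1* held 0 matches of any of these motifs in the bases searched. For *Irf9* those bases lie inside the GENCODE gene, because its RefSeq start is 414 bases past the GENCODE start. This offset was larger still for *Igtp* (542 bases), *Isg20* (574), *Oas1a* (861), *Irgm1* (917) and *Samd9l* (5485). *Mx1* had no promoter sequence here. A match is a string of letters and does not show binding.

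Under basal conditions ISGs were expressed at low levels in WT keratinocytes. Per kilobase of merged exon, mean levels were highest for *Trim25*, a ubiquitin ligase of the RNA-sensing pathway (8.80 CPM per kb), for *Bst2*, which tethers budding viruses to the cell (6.77), and for *Eif2ak2*, the kinase PKR (5.39). They were lowest among the tested genes for *Herc6* (0.00711) and *Ifi44* (0.00795). *Isg15*, a ubiquitin-like protein joined to other proteins, stood at 1.35 and rose to 7.49 CPM per kb with cytokines in WT, against 1.87 and 3.34 in KO cells. *Irf1* went from 2.66 to 7.18 in WT and from 3.16 to 7.15 in KO cells on this scale. The SD of log2 CPM between the mice of a group ran from 0.0608 to 0.237 for *Trim25* and from 0.622 to 2.98 for *Ifi44*, which lies near 0 counts, so that precision differed widely among the ISGs.

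The WT replicate 5 library with IL17A/TNFα stands apart in these genes. It was the highest of its 5 libraries for 32 of the 38 ISGs, whereas it was the highest for 21.4% of all genes tested. Its mean log2 CPM over the 38 ISGs was 2.75, against 1.03 to 1.68 in the other 4 WT libraries with cytokines and 0.824 to 1.44 in the 8 KO libraries with cytokines. Its summed immune marker level was 45.8 CPM, within the 32.1 to 52.5 CPM of its group. Single immune markers differed in this. The library was the highest of its group for *Cd68* (38.5 CPM), *Ptprc*, *Trac* and *S100a4*. It was at the group median for *Lyz2* (3.81 CPM) and *Csf1r* (2.40 CPM) and at 0 for *Cd3e* and *Adgre1*. The part of immune cells was not tested. Results that rest on WT cells with cytokines are therefore given with this library, and the called ones also without WT replicate 5. Without this mouse *Ifit3b* and *Cmpk2*, both counted in the 32, fell under the filter.

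**Figure D1:**
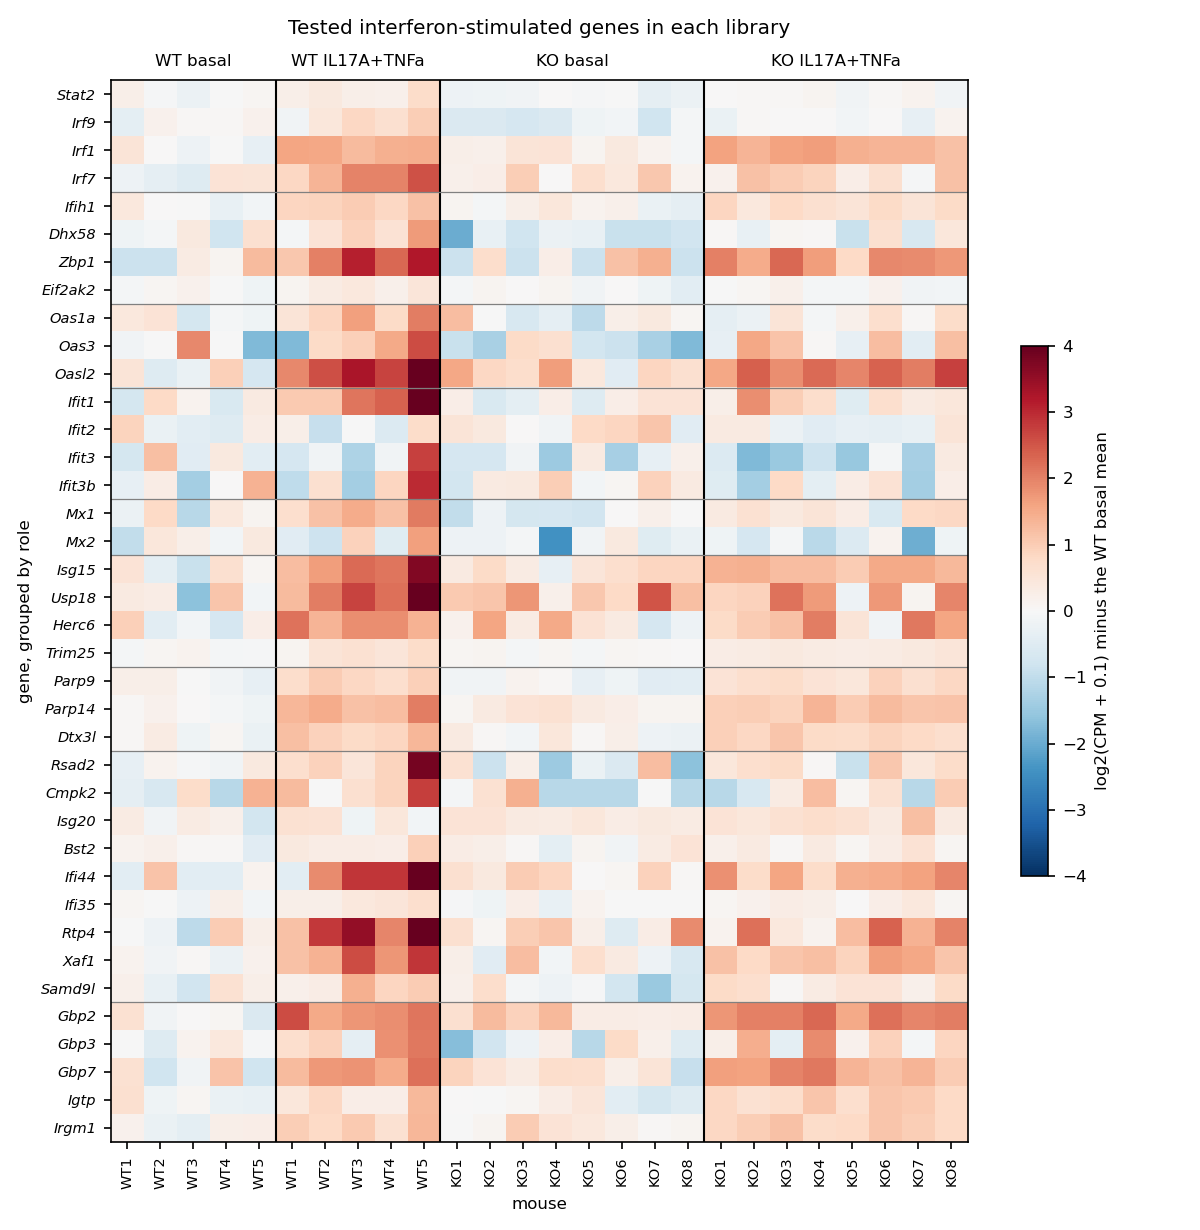
Heat map of the 38 tested ISGs (rows, grouped by role) in the 26 libraries (columns, named by mouse and grouped by genotype and treatment). Colour is log2(CPM + 0.1) minus the mean of the 5 WT basal libraries, and the column of WT replicate 5 with cytokines is the darkest for 32 of the 38 genes within its group.

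With IL17A/TNFα, 24 of the 38 tested ISGs rose in WT and 17 in KO cells. In WT cells 24 were called higher (adjusted p under 0.1 by edgeR's quasi-likelihood test, and more than 1.5-fold apart) and 0 lower, against 8.65% and 5.26% of all genes tested. By DESeq2 0 were called lower as well, and 0 had a lower level at an unadjusted p under 0.05. The median log2 fold change of the 38 was 1.33, against 0.0137 for all genes. In KO cells 17 were called higher and 0 lower, against 6.33% and 4.55% of all genes. The median change of the 38 was 0.76 on the log2 scale, and 5 of them had a lower fitted level, against 49.3% of all genes. Again 0 were called lower by DESeq2 and 0 were lower at an unadjusted p under 0.05. In bulk RNA, more cells that express a gene and more RNA per cell cannot be told apart. The immune markers, summed, stood at 27.6 ± 4.38 CPM without and 43.3 ± 8.80 CPM with cytokines in the WT libraries. In KO libraries the same sums had means of 30.7 and 38.0 CPM, and their part in the result was not tested. Without WT replicate 5, 36 ISGs passed the filter, 19 of them were called higher in WT, all among the 24, and the median log2 fold change of the 36 in WT was 0.93. The 5 WT calls lost were those of *Irf9*, *Oas1a*, *Rsad2*, *Gbp3* and *Igtp*.

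The WT log2 fold changes without WT replicate 5 that are not given with the genes below were as follows, with adjusted p between 7.54e-09 and 0.0306. They were 1.34 for *Irf1*, 0.85 for *Ifih1*, 3.72 for *Zbp1*, 1.05 for *Mx1* and 2.73 for *Herc6*. Among the genes of ADP-ribosylation, *Parp9* had 0.72, *Parp14* 1.27 and *Dtx3l* 0.86. *Rtp4* had 3.17 and *Xaf1* 1.96, and of the GTPases *Gbp2* had 1.86, *Gbp7* 1.27 and *Irgm1* 0.93. All 13 were called with and without this library.

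**Figure D2:**
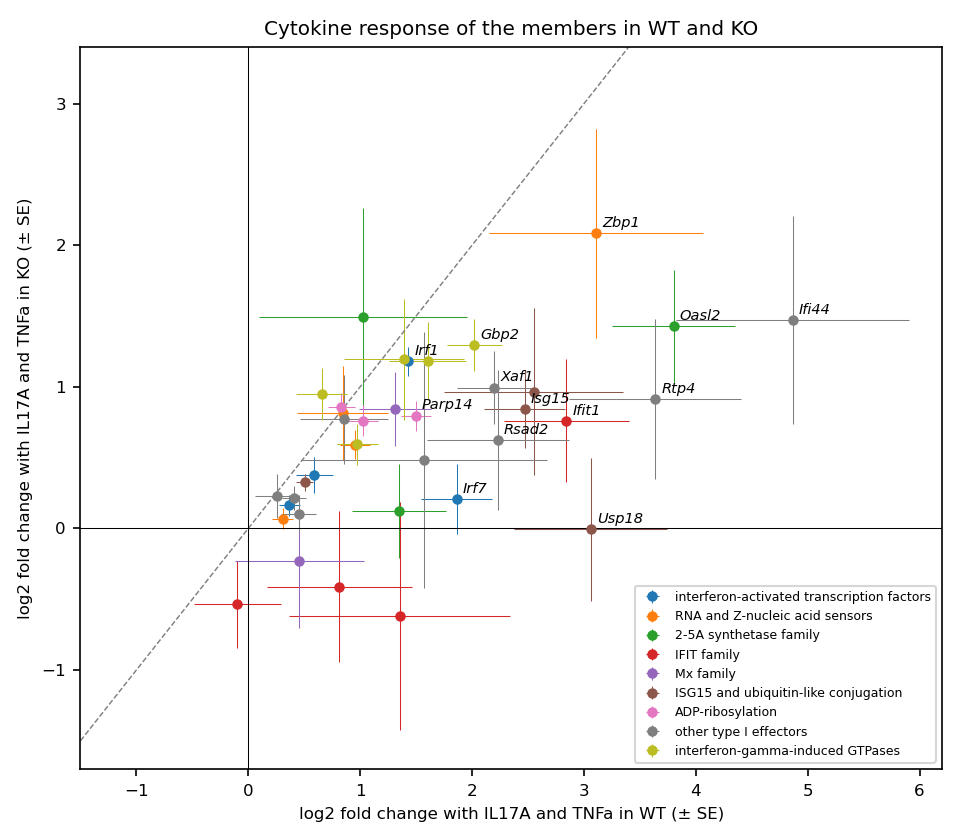
Log2 fold change with IL17A/TNFα in WT (horizontal) and in KO cells (vertical) for the 38 tested ISGs, coloured by role, with standard errors as bars. Points below the dashed line of equality had a higher fitted log2 fold change in WT than in KO cells. Among them are *Ifi44* (4.87 in WT, 1.47 in KO) and *Usp18* (3.06 in WT, -0.0047 in KO), while *Irf1* lies close to the line.

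Of the 4 transcription factors, 3 were called higher in WT and 1 in KO cells. *Irf1*, which drives ISGs downstream of NF-κB and interferon-gamma, stood at 17.6, 12.3, 10.6, 12.1 and 9.64 CPM in WT replicates 1 to 5 under basal conditions and at 36.2, 35.6, 29.7, 32.7 and 33.7 CPM with cytokines. In KO cells it ranged from 11.6 to 18.0 CPM (median 14.2) and from 27.4 to 39.0 CPM (median 32.2). In both genotypes every treated library lay above every basal one. The log2 fold change, with its standard error (SE), was 1.43 (SE 0.13, adjusted p = 5.8e-10) in WT and 1.18 (SE 0.10, adjusted p = 1.76e-10) in KO cells. With cytokines the genotypes differed by -0.01 (SE 0.11, adjusted p = 0.991).

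*Irf7*, which amplifies the type I response, stood at 1.08, 0.948, 0.837, 1.87 and 1.84 CPM in WT cells under basal conditions and at 2.27, 3.34, 5.25, 5.22 and 7.84 CPM with cytokines. In KO cells the range was 1.26 to 2.75 CPM (median 1.61) under basal conditions and 1.20 to 2.93 CPM (median 2.22) with cytokines. The WT groups did not overlap, whereas the KO groups did, with 5 of 8 KO mice higher after cytokines. The log2 fold change was 1.86 (SE 0.32, adjusted p = 3.25e-05) in WT and 0.21 (SE 0.25, adjusted p = 0.595) in KO cells. Without WT replicate 5 the WT value was 1.75 (adjusted p = 0.000242).

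*Irf9* and *Stat2*, parts of the ISRE-binding complex, moved less. *Irf9* was at 12.7, 18.8, 17.2, 17.3 and 18.8 CPM in WT basal cells and at 15.3, 22.9, 30.0, 26.3 and 33.2 CPM with cytokines, and 4 of the 5 treated libraries lay above all basal ones. The log2 fold change in WT was 0.59 (SE 0.16, adjusted p = 0.00498), just over the threshold on the fold. It was under that threshold without WT replicate 3 (0.52), WT replicate 5 (0.51) or any of KO replicates 3, 5, 6 and 8 (each 0.58), and with the mouse as a block (0.56). In KO cells the change of *Irf9* was 0.37 (SE 0.13, adjusted p = 0.0258) and that of *Stat2* 0.16 (SE 0.08, adjusted p = 0.119). *Stat2* in WT had 0.37 (SE 0.10, adjusted p = 0.00403), under the threshold on the fold.

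Of the 4 sensors of RNA and Z-form nucleic acid, 2 were called higher in WT and 3 in KO cells. *Ifih1* encodes MDA5, a sensor of long double-stranded RNA. In WT cells it was at 13.5, 10.3, 9.95, 8.31 and 9.41 CPM under basal conditions and at 18.4, 19.0, 20.8, 18.3 and 23.0 CPM with cytokines, and the groups did not overlap. Its log2 fold change was 0.95 (SE 0.13, adjusted p = 1.37e-06) in WT and 0.59 (SE 0.11, adjusted p = 4.58e-05) in KO cells, where it fell under the threshold on the fold without KO replicate 1 (0.57), 7 (0.57) or 8 (0.52).

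*Zbp1*, a sensor of Z-form nucleic acid linked to necroptosis, was close to undetected before treatment, with 0, 0, 0.129, 0.0944 and 0.331 CPM in WT cells, and reached 0.282, 0.634, 1.47, 0.780 and 1.55 CPM with cytokines. For scale, 3 counts in a library are worth between 0.0387 and 0.0709 CPM, and 3 pairs with both reads counted between 0.0773 and 0.142 CPM. In KO cells *Zbp1* went from a median of 0.0574 CPM (range 0 to 0.387) to 0.536 (range 0.215 to 0.780). Its log2 fold change was 3.11 (SE 0.96, adjusted p = 0.013) in WT and 2.08 (SE 0.74, adjusted p = 0.0321) in KO cells. *Dhx58*, the regulator LGP2, was called only in KO cells, at 0.82 (SE 0.33, adjusted p = 0.0626), with 0.84 (SE 0.41, adjusted p = 0.12) in WT, and the KO call was lost without KO replicate 1, 3, 6 or 8 (adjusted p between 0.125 and 0.199). *Eif2ak2* was not called in either genotype, with 0.31 in WT and 0.07 in KO cells.

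The 2-5A synthetases make a short oligoadenylate that turns on RNase L, and *Oasl2* is a related protein of this family. *Oasl2* was at 0.347, 0.119, 0.161, 0.504 and 0.0945 CPM in WT basal cells and at 1.09, 1.75, 2.91, 1.95 and 9.93 CPM with cytokines, without overlap. In KO cells it went from a median of 0.434 CPM (range 0.130 to 0.889) to 1.30 (range 0.807 to 1.98). The log2 fold change was 3.80 (SE 0.55, adjusted p = 2.45e-06) in WT and 1.43 (SE 0.40, adjusted p = 0.00637) in KO cells, and 2.73 (adjusted p = 6.75e-05) in WT without WT replicate 5. *Oas1a* was called in WT at 1.35 (SE 0.42, adjusted p = 0.0146), not without WT replicate 5 (0.98, adjusted p = 0.131), and stood at 0.12 (SE 0.33, adjusted p = 0.842) in KO cells. Part of the *Oas1a* sequence, 9.36% of its 100-base windows, also occurs in *Oas1g*. *Oas3* was not called in either genotype. *Oas2* and *Oasl1* were under the filter: *Oas2* had 0 counts in all 13 basal libraries, 4, 2, 0, 12 and 46 in WT cells with cytokines and at most 8 in KO cells with cytokines.

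Of the IFIT proteins, which bind viral RNA and block its translation, *Ifit1* was the 1 called, and only in WT. It was at 0.174, 0.672, 0.386, 0.189 and 0.473 CPM under basal conditions and at 0.819, 0.818, 1.87, 2.17 and 7.87 CPM with cytokines in WT, without overlap. In KO cells the median went from 0.432 (range 0.191 to 0.542) to 0.555 CPM (range 0.215 to 1.51). Fitted as a log2 fold change, this was 2.84 (SE 0.56, adjusted p = 0.000197) in WT, 1.98 (adjusted p = 0.00628) without WT replicate 5, and 0.76 (SE 0.43, adjusted p = 0.206) in KO cells. *Ifit2*, *Ifit3* and *Ifit3b* were called in neither genotype, with log2 fold changes of -0.10, 0.81 and 1.35 in WT and -0.54, -0.41 and -0.62 in KO cells. *Ifit3* was at 0.466, 0.719, 0.279 and 0.715 CPM in WT replicates 1 to 4 with cytokines and at 5.90 in WT replicate 5, and its promoter stretch holds as many ISRE cores as that of *Ifit1*. *Ifit3b* shares 27.2% of its 100-base windows with *Ifit3*, so the split of counts between them is uncertain.

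*Mx1*, a gene of the family of dynamin-like GTPases, was called in both genotypes. It was at 1.20, 2.59, 0.612, 1.95 and 1.56 CPM in WT basal cells and at 2.32, 3.38, 4.18, 3.36 and 6.37 CPM with cytokines, where 4 of 5 libraries lay above all basal ones. The KO median went from 1.05 (range 0.678 to 1.66) to 1.99 CPM (range 0.907 to 2.63). The fitted log2 change was 1.31 (SE 0.33, adjusted p = 0.00222) in WT and 0.84 (SE 0.26, adjusted p = 0.0133) in KO cells. *Mx2* was not called in either, with 0.46 and -0.23.

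Of the ISG15 system, 3 of 4 genes were called in WT and 1 in KO cells. *Isg15* was at 1.46, 0.711, 0.483, 1.57 and 1.04 CPM in WT basal cells and at 2.40, 3.30, 5.05, 4.64 and 13.9 CPM with cytokines. In KO cells it went from a median of 1.5 (range 0.746 to 1.86) to 2.62 CPM (range 2.07 to 2.99). Neither genotype showed an overlap. On the log2 scale the change was 2.47 (SE 0.36, adjusted p = 2.79e-06) in WT, 1.85 (adjusted p = 4.21e-05) without WT replicate 5, and 0.84 (SE 0.28, adjusted p = 0.0195) in KO cells. Of the exon bases of *Isg15*, 31.1% overlap a gene on the opposite strand, as do 46.0% of those of *Irf1*, and the strand setting of the counting was not given in the sources used here.

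*Usp18*, which removes ISG15 from proteins and dampens receptor signalling, was at 0.295, 0.277, 0, 0.566 and 0.189 CPM in WT basal cells and at 0.650, 1.18, 1.91, 1.32 and 6.18 CPM with cytokines, without overlap. In KO cells it went from a median of 0.567 (range 0.258 to 1.66) to 0.699 CPM (range 0.172 to 1.30), with 4 of 8 mice higher. Fitted as a log2 fold change, this was 3.06 (SE 0.69, adjusted p = 0.000818) in WT, 2.13 (adjusted p = 0.0259) without WT replicate 5, and -0.0047 (SE 0.51, adjusted p = 0.997) in KO cells. *Herc6*, the mouse ligase for ISG15, had 2.55 (SE 0.80, adjusted p = 0.0146) in WT and 0.97 (SE 0.59, adjusted p = 0.243) in KO cells, and shares 9.13% of its windows with an overlapping gene model. *Trim25* rose by under the threshold on the fold, with 0.50 (SE 0.07, adjusted p = 2.88e-06) and 0.33 (SE 0.06, adjusted p = 5.38e-05).

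*Parp9*, *Parp14* and *Dtx3l*, which act in ADP-ribosylation, a modification of proteins, were each called higher in both genotypes. *Parp14* was at 8.33, 9.03, 8.08, 7.49 and 7.11 CPM in WT basal cells and at 20.1, 22.7, 18.2, 19.1 and 33.0 CPM with cytokines. In KO cells its median went from 9.94 (range 8.46 to 12.2) to 16.8 CPM (range 15 to 20.7), and no group of treated libraries overlapped its basal group. The fitted log2 change was 1.5 (SE 0.14, adjusted p = 5.73e-10) in WT and 0.80 (SE 0.11, adjusted p = 6.13e-07) in KO cells. *Dtx3l* had 1.02 (SE 0.14, adjusted p = 6.95e-07) and 0.76 (SE 0.11, adjusted p = 1.61e-06). *Parp9* had 0.83 (SE 0.12, adjusted p = 2.61e-06) and 0.86 (SE 0.10, adjusted p = 2.56e-08).

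Of the other type I effectors, 4 of 9 tested were called in WT and 2 in KO cells. *Xaf1*, a proapoptotic factor, was at 1.35, 1.07, 1.26, 1.01 and 1.37 CPM in WT basal cells and at 2.85, 3.33, 7.94, 4.29 and 9.39 CPM with cytokines, without overlap. In KO cells it went from a median of 1.28 (range 0.736 to 2.99) to 2.78 CPM (range 2.16 to 4.09). Its log2 fold change was 2.20 (SE 0.33, adjusted p = 4.79e-06) in WT and 0.99 (SE 0.26, adjusted p = 0.00321) in KO cells.

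*Rtp4* had a log2 fold change of 3.64 (SE 0.77, adjusted p = 0.000432) in WT and 0.91 (SE 0.56, adjusted p = 0.247) in KO cells, and shares 24.9% of its windows with another gene model. *Ifi44* was at 0, 0.198, 0, 0 and 0.0473 CPM in WT basal cells and at 0, 0.395, 0.876, 0.867 and 4.91 CPM with cytokines. Its fitted change was 4.87 (SE 1.04, adjusted p = 0.000494) in WT, 3.44 (adjusted p = 0.0161) without WT replicate 5, and 1.47 (SE 0.74, adjusted p = 0.14) in KO cells, where the mouse as a block brought it to a call (adjusted p = 0.0758). These fitted values start from levels at or near the detection limit and depend on the prior count of edgeR's fit.

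*Rsad2* encodes viperin, which makes a chain-terminating nucleotide. It was at 0.434, 0.632, 0.547, 0.504 and 0.780 CPM in WT basal cells and at 0.960, 1.16, 0.836, 1.13 and 9.5 CPM with cytokines. The groups did not overlap, and the mean rests on WT replicate 5: the log2 fold change in WT was 2.23 (SE 0.63, adjusted p = 0.00723) with it and 0.93 (adjusted p = 0.243) without it. *Samd9l* was called only in KO cells (0.77, SE 0.32, adjusted p = 0.0648, with 0.86 and adjusted p = 0.104 in WT), and not without KO replicate 5, 6, 7 or 8 (adjusted p between 0.102 and 0.173). *Bst2*, *Ifi35*, *Isg20* and *Cmpk2* were called in neither genotype, with 0.45, 0.41, 0.26 and 1.57 in WT. *Ifi27l2a* was under the filter.

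The GTPases induced mainly by interferon-gamma, which attack the vacuoles of intracellular microbes, responded in both genotypes: all 5 tested were called higher in each, with log2 fold changes from 0.66 to 2.02 in WT and from 0.59 to 1.30 in KO cells. *Gbp2* was at 2.92, 1.70, 1.90, 2.0 and 1.23 CPM in WT basal cells and at 11.9, 5.50, 6.65, 7.02 and 8.65 CPM with cytokines. In KO cells its median went from 2.67 (range 2.28 to 4.72) to 7.91 CPM (range 5.56 to 9.57), again without overlap. On the log2 scale the change was 2.02 (SE 0.24, adjusted p = 1.12e-07) in WT and 1.30 (SE 0.19, adjusted p = 2.15e-06) in KO cells.

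*Irgm1* had 0.97 (SE 0.18, adjusted p = 0.000114) in WT and 0.59 (SE 0.14, adjusted p = 0.00184) in KO cells, and the KO value was under the threshold on the fold without KO replicate 1, 2, 6, 7 or 8 (0.55 to 0.58). *Gbp7* had 1.60 (SE 0.35, adjusted p = 0.000547) and 1.18 (SE 0.27, adjusted p = 0.000995), and *Igtp* 0.66 (SE 0.23, adjusted p = 0.0296) and 0.95 (SE 0.18, adjusted p = 0.000146). *Gbp3* had 1.39 (SE 0.54, adjusted p = 0.0483) and 1.19 (SE 0.43, adjusted p = 0.0349). The WT call of *Igtp* was lost without WT replicate 2 (adjusted p = 0.126) or 5 (adjusted p = 0.302), and that of *Gbp3* without WT replicate 2 (0.112), 4 (0.115) or 5 (0.239), while the KO call of *Gbp3* was lost without KO replicate 2 (0.122). *Iigp1* was under the filter, with a highest count of 30, in WT replicate 5 with cytokines.

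**Figure D3:**
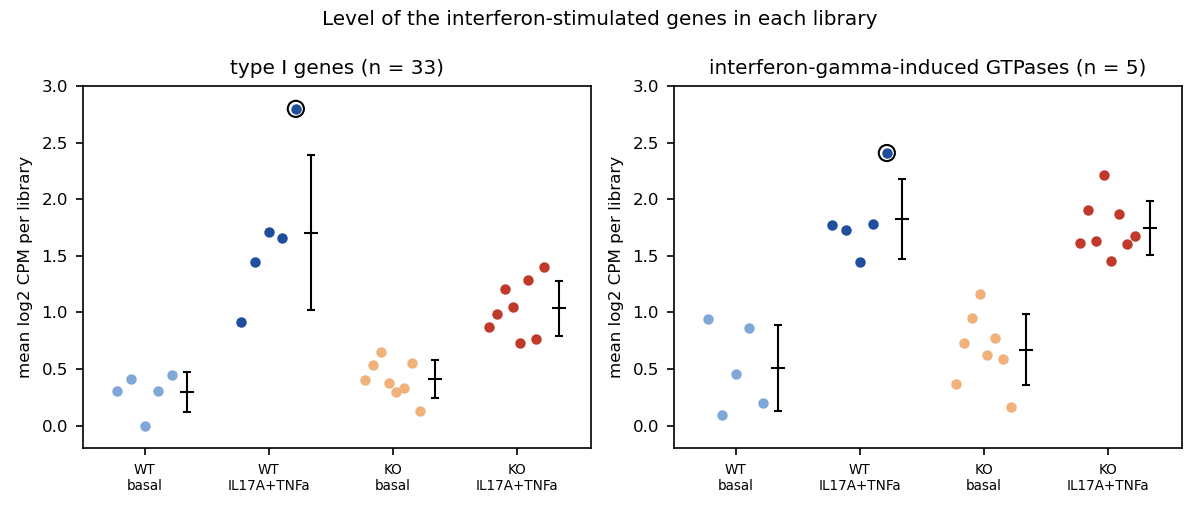
Mean log2 CPM per library of the 33 tested type I ISGs (left) and of the 5 tested interferon-gamma-induced GTPases (right) in the 4 groups. Points are libraries, the horizontal mark and bar give the mean ± SD of the group, and the circle marks WT replicate 5 with cytokines, at 2.80 on the left and 2.41 on the right.

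Under basal conditions 1 ISG was called between genotypes. Of the 38, 23 had a higher and 15 a lower fitted level in KO cells, against 50.1% and 49.9% of all genes tested. The median of the 38 was 0.083 on the log2 scale. The gene called was *Gbp2*, higher in KO cells, against 1.61% of all genes called higher and 1.07% called lower. Among the lower ISGs 0 were called by edgeR or DESeq2 and 2 had an unadjusted p under 0.05. The log2 fold change of *Gbp2* was 0.69 (SE 0.22, adjusted p = 0.0446), and 4 of 8 KO libraries lay above the highest WT library. That call was lost without WT replicate 2 (adjusted p = 0.102), WT replicate 5 (0.159) or KO replicate 2 (0.107). It was also lost with the mouse as a replicate block, fitted here by limma (0.15). In that fit 0 ISGs were called and 3 had an unadjusted p under 0.05. *Irf9* pointed the other way, with a range of 9.54 to 15.8 CPM (median 11.2) in KO cells against the WT values given above. Its log2 fold change was -0.44 (SE 0.14, adjusted p = 0.0509), which is under the threshold on the fold, and 5 of 8 KO libraries lay below the lowest WT library.

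In the presence of cytokines 7 ISGs were lower in KO than in WT cells. Of the 38, 36 had a lower fitted level in KO cells, against 52% of all genes tested, and the median log2 fold change was -0.61. The 7 called lower and 0 called higher stand against 0.556% and 0.148% of all genes tested. Of the genes higher in KO, 0 reached an unadjusted p under 0.05 and 0 were called by DESeq2. The 7 were *Ifit1* (-2.07, SE 0.46, adjusted p = 0.0228), *Oasl2* (-1.41, SE 0.42, adjusted p = 0.0903), *Irf7* (-1.17, SE 0.27, adjusted p = 0.0314), *Isg15* (-1.16, SE 0.30, adjusted p = 0.0513), *Mx1* (-0.97, SE 0.28, adjusted p = 0.0819), *Xaf1* (-0.92, SE 0.28, adjusted p = 0.0942) and *Irf9* (-0.66, SE 0.14, adjusted p = 0.0207). The 7 are among the 33 type I genes of the 38 tested. The 5 GTPases had values between -0.49 and 0.19 with 0 called by edgeR, DESeq2 or limma and 0 at an unadjusted p under 0.05, and a difference between both sets of genes was not tested. Each of the 7 overlapped between genotypes, with 7 of 8 KO libraries below the lowest WT library for *Ifit1*, 6 for *Mx1*, 5 for *Xaf1*, 4 for *Irf7*, 2 for *Oasl2*, 2 for *Irf9* and 1 for *Isg15*. For *Stat2* all 8 KO libraries (17.9 to 21.7 CPM) lay below all WT libraries (22.9 to 32.6 CPM), with a log2 fold change of -0.35 (SE 0.09, adjusted p = 0.0425), under the threshold on the fold. *Stat2* is named for this after its values were seen. With cytokines the summed melanocyte markers were 341 ± 31.5 CPM (range 306 to 404) in KO and 433 ± 57.7 CPM (range 333 to 475) in WT libraries, and their part in the result was not tested.

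All 7 calls were lost without WT replicate 5. Without it 0 ISGs were called by edgeR and 9 were lower at an unadjusted p under 0.05. Of the 36 tested, 31 still had a lower fitted level in KO cells, and the median log2 fold change was -0.26. Over all genes 59 were called without this mouse, against 119 with all libraries. The values without it were -1.14 for *Ifit1* (adjusted p = 0.265), -0.53 for *Oasl2* (0.607), -0.92 for *Irf7* (0.137), -0.55 for *Isg15* (0.373), -0.72 for *Mx1* (0.309), -0.65 for *Xaf1* (0.351) and -0.54 for *Irf9* (0.0952, under the threshold on the fold). The count of called ISGs also fell to 3 or 4 without WT replicate 3 or 4 or without any of KO replicates 1 to 6. It rose to 14 without WT replicate 1, which had the lowest type I level of the treated WT libraries (0.916), and to 13 without KO replicate 8. Calls over all genes moved as well, to 40 without WT replicate 3 and 47 without WT replicate 4. They were 52 to 81 without any of KO replicates 1 to 6, 558 without WT replicate 1 and 290 without KO replicate 8. With the mouse as a replicate block, fitted here by limma and not by edgeR, 3 of the 7 (*Irf7*, *Irf9* and *Mx1*) remained called. *Ifit1* (adjusted p = 0.103), *Oasl2* (0.23), *Isg15* (0.156) and *Xaf1* (0.154) did not. Limma without a block also called 3. Over the fits with 1 mouse left out, the adjusted p of *Oasl2* lay between 0.0138 and 0.607, that of *Mx1* between 0.0173 and 0.309 and that of *Xaf1* between 0.0153 and 0.351.

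**Figure D4:**
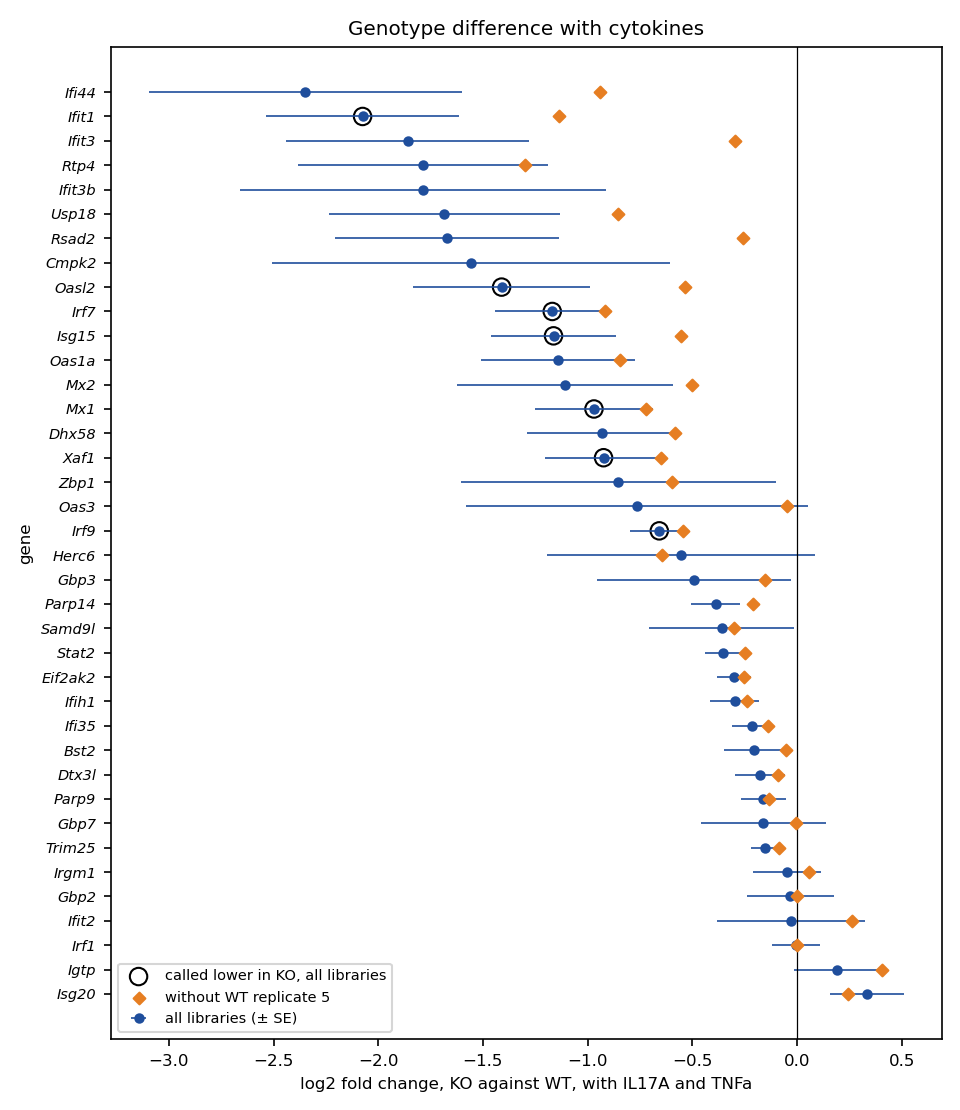
Log2 fold change of KO against WT cells with IL17A/TNFα for the 38 tested ISGs, with all libraries (circles with standard errors) and without WT replicate 5 (diamonds, 36 genes). Open rings mark the 7 genes called lower with all libraries. The diamonds lie nearer to 0 than the circles for most genes, for *Ifit1* at -1.14 against -2.07.

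The difference between both cytokine responses was tested by the interaction of genotype and treatment. For 35 of 38 ISGs the fitted log2 fold change with cytokines was lower in KO cells, against 52.8% of all genes tested. Of the ISGs 2 were called, both lower, against 0.219% of all genes tested called in either direction. They were *Irf7*, with -1.65 (SE 0.40, adjusted p = 0.0559), and *Parp14*, with -0.70 (SE 0.17, adjusted p = 0.0568). Neither was called without WT replicate 5 (adjusted p = 0.13 and 0.283), where edgeR called 0 ISGs and 7 were lower at an unadjusted p under 0.05. The call of *Irf7* was also lost without WT replicate 2, 3 or 4 or KO replicate 3, 5, 6 or 7 (adjusted p between 0.103 and 0.188), and that of *Parp14* without WT replicate 2 or 4 or KO replicate 2, 3 or 5 (0.103 to 0.148). The count of called ISGs was 0 without KO replicate 3 or 5, 1 without WT replicate 2, 3 or 4 or KO replicate 2, 6 or 7, 4 without KO replicate 4 or 8, and 5 without WT replicate 1. Over all genes 37 were called with all libraries, 21 without WT replicate 5 and 91 without WT replicate 1. Without any other mouse 18 to 60 were called. With the mouse as a replicate block 3 were called, the added one being *Isg15* (-1.42, adjusted p = 0.0949). The larger fitted differences of *Usp18* (-3.06, SE 0.84, adjusted p = 0.105) and *Oasl2* (-2.37, SE 0.65, adjusted p = 0.108) did not pass. The comparisons of genotypes and of treatments share libraries, so their values are not independent of each other.

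**Figure D5:**
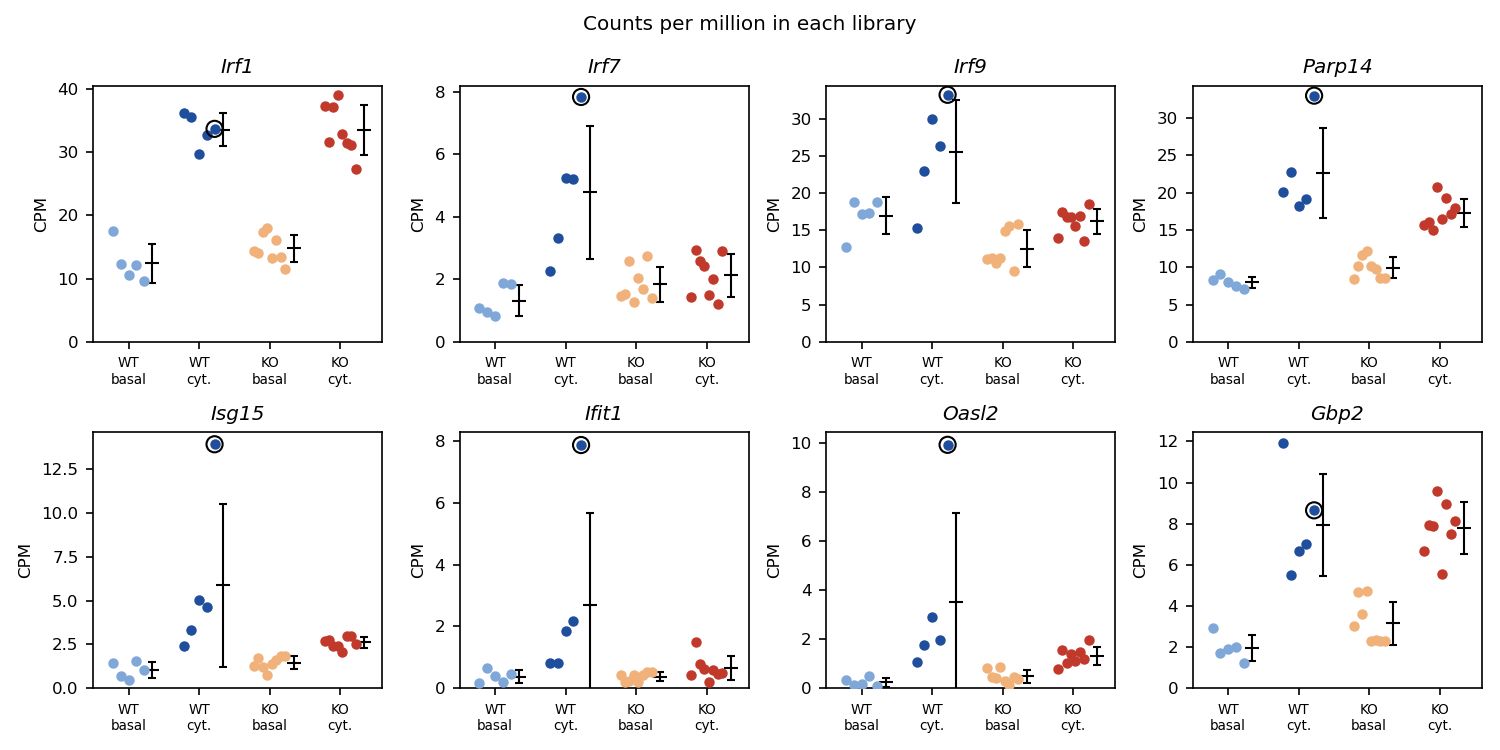
CPM per library of 8 ISGs in the 4 groups, where cyt. stands for IL17A/TNFα. Points are libraries, the mark and bar beside them give the mean ± SD (cut off at 0), and the circle marks WT replicate 5 with cytokines. For each of the 8 genes the treated libraries of both genotypes overlap in range (27.4 to 39.0 CPM for *Irf1* in KO cells). The circled library is the highest point for the 6 genes other than *Irf1* and *Gbp2*.

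The upstream genes of the pathway were looked at from a list of ligands, receptors, kinases and STATs, inhibitors and genes that induce interferon. Of the 27 tested, 5 were called with cytokines in WT and 5 in KO cells, against 13.9% and 10.9% of all genes tested. Of 12 interferon ligand genes, 0 passed the filter. *Ifnb1*, *Ifna1*, *Ifna4*, *Ifna5*, *Ifna6*, *Ifne* and *Ifng* had 0 counts in all 26 libraries, which allows a level of up to 0.0387 to 0.0709 CPM, depending on the library, for each at 3 counts. Where both reads of a pair were counted, 3 pairs allow 0.0773 to 0.142 CPM. All 12 together had at most 14 counts in a library, in WT replicate 5 with cytokines, where *Ifna2* had 4, *Ifnz* 6 and *Ifnl2* 4. The other WT libraries with cytokines had 4, 10, 12 and 6 counts, and the 8 KO libraries with cytokines between 0 and 4. The cells were sampled at 24 h, and earlier times were not analysed here.

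All 6 receptor genes were tested, and *Il10rb*, a subunit shared by the receptors for type III interferon and IL-10, was called in both genotypes, with 0.68 (adjusted p = 3.86e-06) in WT and 0.66 (adjusted p = 1.21e-07) in KO cells. Of the 5 Janus kinases and STATs 0 were called by edgeR, DESeq2 or limma with cytokines or between genotypes, and 3 had an unadjusted p under 0.05 for the cytokine effect in WT and 3 in KO cells. Of 6 inhibitors, *Socs1*, which blocks Janus kinases, was called in both genotypes and went from 0.380 to 2.41 CPM in WT (2.66, adjusted p = 8.62e-08) and from 0.585 to 1.70 CPM in KO cells (1.54, adjusted p = 6.95e-06).

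Of the genes that induce interferon, 10 of 11 were tested. *Ikbke*, a kinase that activates IRF3 and is a target of NF-κB, rose from 35.2 to 77.3 CPM in WT (1.14, adjusted p = 6.38e-15) and from 35.6 to 75.7 CPM in KO cells (1.09, adjusted p = 5.79e-17). *Ddx58*, the RNA sensor RIG-I, was called in WT (0.72, adjusted p = 3.34e-06) and was under the threshold on the fold in KO cells (0.41, adjusted p = 0.000333). *Ticam1*, the adaptor of TLR3, was called lower in WT (-0.72, adjusted p = 7.93e-05), and in KO cells *Tlr3* (0.77, adjusted p = 0.0183) and *Sting1* (0.68, adjusted p = 0.0431) were called higher, *Sting1* not without KO replicate 2 (adjusted p = 0.1). Without WT replicate 5 the WT calls of *Ikbke* (1.07), *Ddx58* (0.59), *Ticam1* (-0.76), *Il10rb* (0.73) and *Socs1* (2.52) remained. Between genotypes 0 of the 27 tested upstream genes were called by edgeR, DESeq2 or limma. By edgeR 2.68% of all genes were called under basal conditions, 0.704% with cytokines and 0.219% in the interaction. At an unadjusted p under 0.05 there were 7 of the 27 under basal conditions and 4 with cytokines. The share of all genes at that p was not taken. In the interaction 0 were called by edgeR, DESeq2 or limma and 6 had an unadjusted p under 0.05, and with the mouse as a replicate block *Sting1* was called (1.19, adjusted p = 0.0869).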

How the data were processed

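The authors made stranded mRNA libraries (TruSeq), aligned the reads to mm39 with STAR 2.7.10b and counted them per gene with featureCounts 2.0.6 and a GENCODE annotation, per the labels and the methods. The deposited counts are not normalized. The log2 normalized counts that the authors also deposited were used only in an alternative. Counting error is smaller at higher levels and still matters near 1 CPM. For *Irf7*, 1.08 CPM in WT replicate 1 under basal conditions rested on 62 counts. Of nonzero counts under 20, 82.6% were even (93.5% for the ISGs), as when both reads of a pair are counted, so that precision at low counts is lower than the counts show.

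The filter was a mean normalized count over 10. The test was the quasi-likelihood test of edgeR (4.0.16, in R 4.3.3, with TMM scaling, 1 fit of the 4 groups over all 26 libraries, no covariate, Benjamini-Hochberg adjustment over 16893 genes). The thresholds of the study's methods were kept: a called gene has an adjusted p under 0.1 and differs by more than 1.5-fold. CPM values carry the TMM scaling, and for log2 CPM a prior count of 1 was added before the log2. The fitted log2 fold changes used edgeR's default prior count instead. Each SE was worked back from the test, as the size of the log2 fold change divided by the square root of the F statistic. The members and lists were chosen with earlier results of these data known. Genes named were, for each role and comparison, up to 3 called members with the lowest adjusted p, the 4 transcription factors, members under the filter and up to 3 called upstream genes. A gene that the rule also names is not reported here.

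Each mouse gave both libraries, so the replicate numbers pair them. Over all genes, both libraries of a mouse deviated from their groups with correlations from 0.000509 to 0.254 over the 13 mice. Over the ISGs the correlations ran from -0.355 to 0.39 and were negative in 8 of 13 mice, and the mouse as a replicate block called 3 ISGs lower in KO cells with cytokines. With the block, the cytokine effects and the interaction were fitted by edgeR. The comparisons of genotypes were fitted by limma, with a correlation of 0.143 between both libraries of a mouse. In those comparisons the block and the change of test cannot be told apart. Alternatives were other scalings, filters and thresholds, DESeq2 1.42.0, limma 3.58.1, only the groups compared, a sex score and each mouse left out. Sex, litters and batches were not given. The steps were tested on simulated counts. Gene positions come from GRCm39 and shared sequence from GENCODE transcripts.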

Additional observations from a re-analysis of the deposited data

Results flagged for a closer look

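The effect of cytokines differed between genotypes for *Irf7*, by -1.65 on the log2 scale, and for *Parp14*, by -0.70, by the test of the interaction. A gap test of the highest and the lowest library in each group was passed in 19 of 156 groups, and 10 of the 19 were the treated library of WT replicate 5. For independent normal values chance passes it in about 1 of 20 groups. Low CPM values are skewed and the groups share libraries, so that rate does not hold here. Of the genes behind the 10, *Ifit3b* and *Cmpk2* passed the filter only with the libraries of WT replicate 5. The treated library of WT replicate 5 stood above the rest of its group with 9.93 CPM for *Oasl2*, 7.87 for *Ifit1*, 5.90 for *Ifit3*, 1.93 for *Ifit3b*, 13.9 for *Isg15*, 6.18 for *Usp18*, 9.5 for *Rsad2*, 1.37 for *Cmpk2*, 15.8 for *Bst2* and 4.91 for *Ifi44*. Among WT basal libraries, replicate 1 was low in *Irf9* (12.7 CPM), replicate 2 high in *Ifi44* (0.198 CPM), and replicate 3 high in *Oas3* (1.19 CPM) and low in the mean log2 CPM of the ISGs (0.0600). Among KO basal libraries, replicate 1 was high in *Oas1a* (1.41 CPM) and replicate 3 in *Irgm1* (5.36 CPM). Among KO libraries with cytokines, replicate 2 was high in *Ifit1* (1.51 CPM), replicate 8 in *Trim25* (70.6 CPM) and replicate 7 in *Isg20* (5.27 CPM).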

How the results depend on the processing

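The counts of ISGs called with cytokines in WT (24) and in KO cells (17) stayed within 1.5 times under every alternative, with 19 to 25 and 14 to 18 over the mice left out. The 14 in KO cells, without KO replicate 8, were 13 higher and 1 lower, *Ifit2* (-0.75, adjusted p = 0.0816). Of ISGs called between genotypes under basal conditions (1), there were 2 with DESeq2, with limma or without the threshold on the fold, 0 with only the groups compared or with the mouse as a replicate block, and 0 to 2 over the mice left out. Of those called with cytokines (7), there were 12 with DESeq2 or with only the groups compared, 11 with halved counts (an alternative chosen after seeing the data), 4 without a filter, 3 with limma, at an adjusted p under 0.05 or with the mouse as a replicate block, and 0 to 14 over the mice left out. Of those called in the interaction (2), there were 5 with DESeq2, 0 at an adjusted p under 0.05, and 0 to 5 over the mice left out. Over the mice left out, calls over all genes ran from 342 to 827 between genotypes under basal conditions. They ran from 40 to 558 with cytokines and from 18 to 91 in the interaction. The cause of these shifts was not tested. The block changed no call of a listed gene other than those given with the results. Most ISGs lie under 10 CPM, and many under 1 CPM, where few read pairs stand behind a value.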
